A study of Mus musculus with 12 samples.

Results

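TRAV7 is a family of variable (V) segments of the mouse T cell receptor alpha chain (TRA) with the members TRAV7-1 to TRAV7-6, several of which have further copies marked D or N. Its chains were taken as every productive TRA contig whose V gene was a TRAV7, TRAV7D or TRAV7N segment, with the copy letter dropped. This gave 792 of 6482 productive TRA contigs (12.2%), carried by 786 of 5834 cells with a productive TRA. The cells were CD45+ immune cells sorted from C57BL/6 mice, and are known here as T cells by their receptor chains alone, since transcripts were not used. Of the 6 receptor libraries, 2 came from brain parenchyma of 5xFADTg mice, which carry human amyloid precursor protein and presenilin transgenes with familial Alzheimer's disease mutations and serve as a model of amyloid pathology, and 2 from brain parenchyma of NonTg mice without the transgenes. The other libraries were 1 from 5xFADTg meninges, the membranes around the brain, and 1 from NonTg meninges. The sources used here give neither age nor sex, and the labels name no animals, so p-values measure only the spread between these libraries, which may be technical.

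A T cell builds its alpha chain by joining 1 V segment to 1 joining (J) segment. The V segment encodes the loops CDR1 and CDR2, which mainly face the MHC molecule, and the start of CDR3, the loop over the peptide, which the J segment completes. A first joining tends to link V segments close to the TRAJ array with TRAJ segments at its near end, and later joinings on the same chromosome move outward to more distant V and J segments. The alpha chain pairs with a beta chain (TRB) made from TRBV, TRBD and TRBJ segments.

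The TRAV7 segments lie on the plus strand at chr14:52654817-53717291 of mm10 (GENCODE M21), a stretch of 1062 kb that holds 13 TRAV7 segments. TRAV7-1 is the most distant from TRAJ61, the first segment of the TRAJ array, at 1500 kb upstream, and TRAV7-6 the nearest at 438 kb. The D copies lie between 1319 and 1471 kb upstream, the N copies between 830 and 1064 kb, and TRAV7-2 to TRAV7-6 without a letter between 438 and 764 kb. Germline stretches from CDR1 to CDR2 are shown because the members differ there, with CDR1 and CDR2 in capitals.
TRAV7-1: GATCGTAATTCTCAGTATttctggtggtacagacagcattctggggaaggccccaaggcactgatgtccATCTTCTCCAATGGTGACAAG
TRAV7D-2: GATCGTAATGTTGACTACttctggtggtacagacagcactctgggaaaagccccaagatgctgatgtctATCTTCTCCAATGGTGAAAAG
TRAV7-3: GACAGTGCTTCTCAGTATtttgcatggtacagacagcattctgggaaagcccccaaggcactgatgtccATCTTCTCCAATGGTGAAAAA
TRAV7-4: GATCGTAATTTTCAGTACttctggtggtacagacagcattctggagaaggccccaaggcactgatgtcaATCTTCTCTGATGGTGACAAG
TRAV7-5: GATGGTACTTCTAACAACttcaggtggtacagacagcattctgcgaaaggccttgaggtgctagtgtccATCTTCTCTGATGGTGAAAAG
TRAV7-6: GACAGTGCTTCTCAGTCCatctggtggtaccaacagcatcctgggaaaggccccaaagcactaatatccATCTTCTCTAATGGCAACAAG
TRAV7D-5: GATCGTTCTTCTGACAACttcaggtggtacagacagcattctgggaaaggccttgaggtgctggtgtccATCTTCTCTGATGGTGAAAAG
TRAV7N-6: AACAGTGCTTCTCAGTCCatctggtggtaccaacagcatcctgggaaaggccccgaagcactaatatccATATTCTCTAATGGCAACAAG

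Over the V region before CDR3 the 6 members were 82.2 to 94.3% identical to each other, with TRAV7-1 and TRAV7-4 most alike and TRAV7-5 and TRAV7-6 least alike. Copies of a member were closer. TRAV7-2 and TRAV7D-2 did not differ over 263 bases, TRAV7-3 and TRAV7D-3 differed at 2 of 264 bases and TRAV7-4 and TRAV7D-4 at 1 of 268. The TRAV7-5 and TRAV7D-5 segments differed at 13 of 264 bases, 3 of them in CDR1 and CDR2, and TRAV7-6 and TRAV7N-6 at 9, with 2 in CDR1 and CDR2. A copy letter on a contig is therefore least certain for TRAV7-2, where 201 contigs were labelled TRAV7D-2 and 1 was labelled TRAV7-2. No contig was labelled TRAV7N-5, which has the same V region as TRAV7D-5. Unless a letter is named, counts below add the copies of a member.

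The libraries held 15827899 to 26710709 reads and 49997 to 128700 unique molecular identifiers (UMIs) over their contigs. In cells with exactly 1 productive TRB, the CDR3 nucleotide sequences of this chain and of the alpha chain richest in UMIs defined the clonotype. Between 349 and 1453 such paired cells per library made up 286 to 784 clonotypes. In all, 3108 clonotypes came from 5207 paired cells, where a clone found in 2 libraries counts in each. Of 7034 cell barcodes, 21 occurred in more than 1 library, 2 of them with a TRAV7 contig, and none carried the same TRAV7 CDR3 in both. Among the 792 TRAV7 contigs, 644 were the alpha chain of a paired cell, 52 were a second alpha chain of such a cell, 64 lay in cells with 2 or more productive TRB and 32 in cells with none. The 644 cells fell into 345 clonotypes, 11.1% of all, which placed TRAV7 second among 20 TRAV families, after TRAV6 (446 clonotypes) and beside TRAV12 (344).

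TRAV7-5, TRAV7-4 and TRAV7-2 were the most used members, with 77, 76 and 74 clonotypes. TRAV7-6 had 56, TRAV7-3 had 48 and TRAV7-1, the most distant segment, had 14. By cells the order was different. TRAV7-2 held 164 cells, TRAV7-4 held 156, TRAV7-6 held 131, TRAV7-5 held 123, TRAV7-3 held 55 and TRAV7-1 held 15. The largest clone made up 52.7% of the TRAV7-6 cells and 43.3% of the TRAV7-2 cells, against 9.09% of the TRAV7-3 cells.

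**Figure D1:**
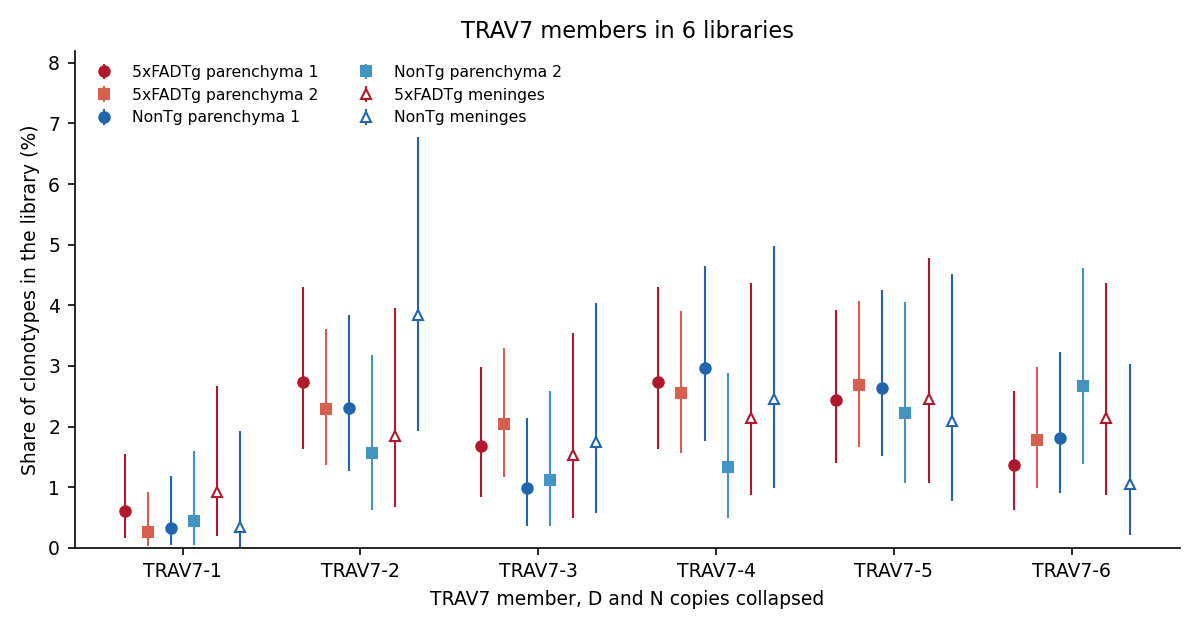
Share of clonotypes (y axis, %) that used each TRAV7 member (x axis) in each of the 6 libraries, with 95% exact binomial (Clopper-Pearson) intervals. TRAV7-1 stays under 1% in every library, and the intervals of the libraries overlap within each member.

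TRAV7-1 took 0.609 and 0.255% of clonotypes in 5xFADTg parenchyma 1 and 2, 0.330 and 0.445% in NonTg parenchyma 1 and 2, 0.920% in 5xFADTg meninges and 0.3497% in NonTg meninges. These were 1 to 4 clonotypes per library. TRAV7-2 took 2.74 and 2.30% in 5xFADTg parenchyma, 2.31 and 1.56% in NonTg parenchyma, 1.84% in 5xFADTg meninges and 3.85% in NonTg meninges, where it was highest. TRAV7-3 took 1.67 and 2.04% in 5xFADTg parenchyma, 0.990 and 1.11% in NonTg parenchyma, 1.53% in 5xFADTg meninges and 1.75% in NonTg meninges. Both 5xFADTg parenchyma libraries lay above both NonTg parenchyma libraries for TRAV7-3. TRAV7-4 took 2.74 and 2.55% in 5xFADTg parenchyma, 2.97 and 1.34% in NonTg parenchyma, 2.15% in 5xFADTg meninges and 2.45% in NonTg meninges. TRAV7-5 was the most even member, at 2.44 and 2.68% in 5xFADTg parenchyma, 2.64 and 2.23% in NonTg parenchyma, 2.45% in 5xFADTg meninges and 2.10% in NonTg meninges. TRAV7-6 took 1.37 and 1.79% in 5xFADTg parenchyma, 1.82 and 2.67% in NonTg parenchyma, 2.15% in 5xFADTg meninges and 1.05% in NonTg meninges. For TRAV7-6 both 5xFADTg parenchyma libraries lay below both NonTg parenchyma libraries. These were 2 of 6 members whose genotype groups did not overlap, against 32.5% of the 123 segments tested.

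For the genotype comparison, clonotypes per segment of all TRAV, TRAJ, TRBV and TRBJ segments in the 4 parenchyma libraries entered edgeR's quasi-likelihood test. No TRAV7 member differed between 5xFADTg and NonTg parenchyma (0 of 6 at an adjusted p of 0.05, with 0 of 123 segments called, 0%). At an unadjusted p under 0.05 there were also 0 of 6 members, against 5 of 123 segments (4.07%), and DESeq2 called 0 segments. The log2 difference, 5xFADTg minus NonTg, was 0.83 (SE 0.37) for TRAV7-3 and -0.45 (SE 0.35) for TRAV7-6, with edgeR adjusted p of 0.914 and 0.969. It lay between 0.059 and 0.33 for the others. The median log2 difference of the 6 members was 0.17, with 5 of 6 positive, against 0.0055 over all segments. The 42 other TRAV segments had a median of -0.11, with 16 positive and 0 called.

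The family as a whole took 11.57 and 11.61% of clonotypes in 5xFADTg parenchyma 1 and 2, against 11.06 and 9.35% in NonTg parenchyma 1 and 2. The means were 11.6 ± 0.0279% and 10.2 ± 1.20% (SD, n = 2 each), a difference of 1.38 points (two-sided exact permutation test, p = 0.3333, the smallest that 2 against 2 libraries allow). It was 0.531 points without NonTg parenchyma 2 and 2.23 points without NonTg parenchyma 1. By cells the distance was wider, at 13.6 and 15.2% in 5xFADTg parenchyma and 11.01 and 8.22% in NonTg parenchyma, a difference of 4.79 points with the same p. Without clones of 10 or more cells it was 1.27 points (exact permutation test, p = 0.667). The member with the largest difference was TRAV7-2, which took 7.46 and 1.72% of cells in 5xFADTg parenchyma 1 and 2 but 1.98 and 1.04% in NonTg parenchyma 1 and 2. TRAV7-6 took 0.746 and 5.92% of cells in 5xFADTg parenchyma and 1.13 and 1.83% in NonTg parenchyma. In both members a single 5xFADTg library was high. TRAV7-4 went the other way, with 1.99 and 2.13% of cells in 5xFADTg parenchyma 1 and 2. It took 5.64 and 2.87% in NonTg parenchyma 1 and 2. Its largest clones there held 34 cells in NonTg parenchyma 1 and 17 in NonTg parenchyma 2.

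**Figure D2:**
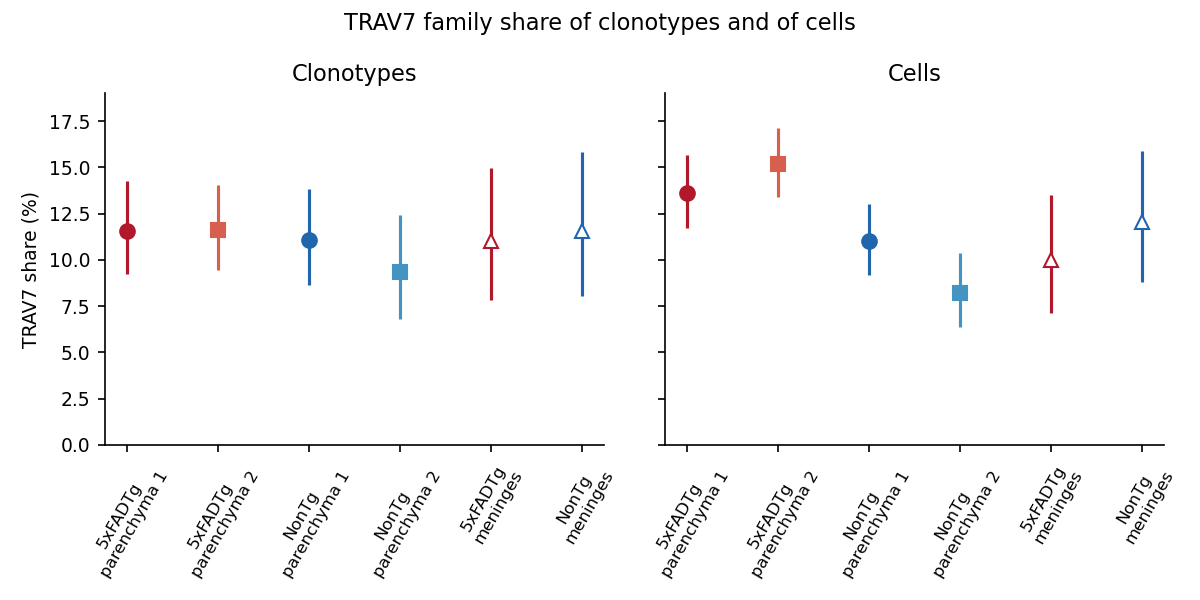
TRAV7 share (y axis, %) of clonotypes (left) and of paired cells (right) in each library (x axis), with 95% exact binomial intervals that cover counting error only. The 5xFADTg parenchyma libraries reach 13.6 and 15.2% of cells, while all 6 libraries lie between 9.35 and 11.6% of clonotypes.

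Between tissues, TRAV7 took 11.04 and 11.54% of clonotypes in 5xFADTg and NonTg meninges, within the range of the 4 parenchyma libraries. The means were 11.3 ± 0.3504% (SD, n = 2) in meninges and 10.9 ± 1.06% (SD, n = 4) in parenchyma, a difference of 0.39 points (two-sided exact permutation test, p = 0.933, smallest possible 0.1333). With genotype as a covariate, edgeR's quasi-likelihood test called 0 of 6 members and 0 of 125 segments (0%). At an unadjusted p under 0.05 it gave 0 members and 7 segments (5.6%), and DESeq2 called 0 segments. The log2 difference, meninges minus parenchyma, ranged from -0.18 (SE 0.50) for TRAV7-6 to 0.69 (SE 0.84) for TRAV7-1, with edgeR adjusted p of 0.933 for both. The median over the 6 members was 0.0077, against -0.0075 over all segments.

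Of the 345 TRAV7 clonotypes, 44 held 2 or more cells and are called expanded. These were 10.4% of the 424 expanded clonotypes of all V segments, and the 301 TRAV7 clonotypes of 1 cell were 11.2% of 2684. TRAV7 took 10.9 and 11.5% of expanded clonotypes in 5xFADTg parenchyma 1 and 2, 8.79 and 9.52% in NonTg parenchyma 1 and 2, 5.56% (1 of 18) in 5xFADTg meninges and 13.8% (4 of 29) in NonTg meninges. Its share of 1-cell clonotypes lay between 9.33 and 11.7%. The mean difference, expanded minus 1-cell, was -1.13 points (two-sided exact sign-flip test over 6 libraries, p = 0.375). Leaving out the 5xFADTg meninges library gave -0.19 points, and leaving out the NonTg one -1.86 points. With expansion counted from 3 cells it was -3.84 points (exact sign-flip test, p = 0.0938), and without iNKT-like receptors, which use TRAV11 with TRAJ18, it was -1.85 points.

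TRAV7-2 had the highest expanded share among its own clonotypes, 14 of 74 (18.9%, 95% interval 10.7 to 29.7%). TRAV7-4 followed with 11 of 76 (14.5%) and TRAV7-6 with 8 of 56 (14.3%). TRAV7-3 had 4 of 48 (8.33%), TRAV7-5 had 6 of 77 (7.79%, 2.91 to 16.2%) and TRAV7-1 had 1 of 14. Other V segments together had 13.8%, so the members lay on both sides of it. All 6 expanded TRAV7-5 clonotypes carried the TRAV7-5 label, and 0 of 21 TRAV7D-5 clonotypes were expanded, which allows a share of up to 14.3%. In edgeR's quasi-likelihood test with library as a block, 0 of 6 members were called, against 3 of 125 segments (2.4%). At an unadjusted p under 0.05 there were 0 members and 13 segments (10.4%), and DESeq2 called no member. The log2 difference, expanded minus 1-cell, was 0.56 (SE 0.49) for TRAV7-2 and -0.90 (SE 0.61) for TRAV7-5, both with an edgeR adjusted p of 0.699.

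**Figure D3:**
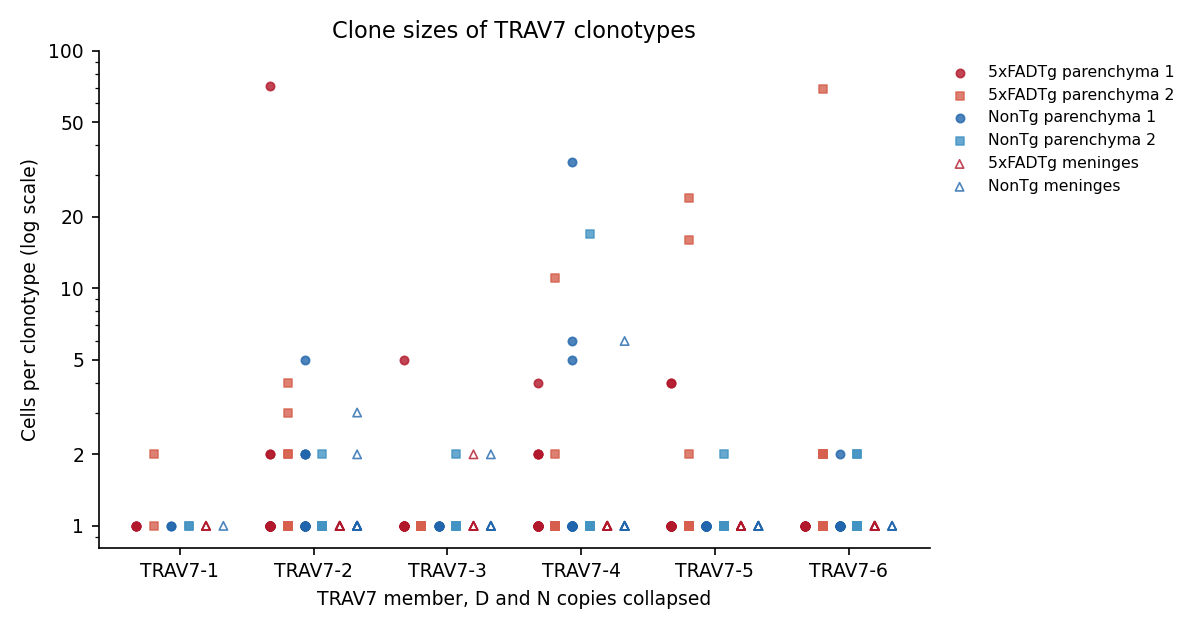
Cells per clonotype (y axis, log scale) for every TRAV7 clonotype, by member (x axis) and library. Clones of 71 and 69 cells in 5xFADTg parenchyma stand above all others, and most clonotypes hold 1 cell.

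A few clones held many of the TRAV7 cells. The 10 largest clonotypes held 259 of 644 cells (40.2%) and the largest pair 140 (21.7%). Of the 52 clones of 10 or more cells in the series, 7 used TRAV7, which made up 11.1% of all clonotypes and 12.4% of paired cells. In 5xFADTg parenchyma 5 of the 7 were found, among 1206 and 1453 paired cells. In NonTg parenchyma 2 were found, among 1063 and 766 paired cells. How the large clones of other V segments divided by genotype is not given here, and this split was not tested. Neither meninges library held a TRAV7 clone of this size. The alpha CDR3 sequences of these 7 clones are shown to compare their joins. Lower case marks bases that match the germline end of V or the J segment, and capitals the bases in between.
TRAV7D-2 with TRAJ26: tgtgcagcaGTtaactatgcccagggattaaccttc
TRAV7-6 with TRAJ57: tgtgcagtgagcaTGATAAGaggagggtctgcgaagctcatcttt
TRAV7D-4 with TRAJ26: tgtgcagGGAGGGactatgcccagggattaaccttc
TRAV7-5 with TRAJ32, first clone: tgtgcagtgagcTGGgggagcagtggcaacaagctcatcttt
TRAV7-4 with TRAJ47: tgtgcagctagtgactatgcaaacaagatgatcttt
TRAV7-5 with TRAJ32, second clone: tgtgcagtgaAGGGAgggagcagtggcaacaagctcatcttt
TRAV7D-4 with TRAJ17: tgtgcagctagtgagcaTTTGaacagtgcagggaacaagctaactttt

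The TRAV7D-2 and TRAJ26 clone had 71 cells, 5.89% of the paired cells of 5xFADTg parenchyma 1, and paired with TRBV1 and TRBJ1-4. In 5xFADTg parenchyma 2 the TRAV7-6 and TRAJ57 clone had 69 cells (4.75%) with TRBV5 and TRBJ1-1. The TRAV7D-4 and TRAJ26 clone was found in NonTg mice, as 6 cells in meninges and 34 cells in parenchyma 1, with a beta chain labelled TRBV12-2+TRBV13-2, a joint label of the deposited files, and TRBJ1-2. It shares its last 23 bases, from TRAJ26, with the clone of 71 cells. Both TRAV7-5 and TRAJ32 clones came from 5xFADTg parenchyma 2. They had 24 cells with TRBV1 and 16 cells with TRBV3, so they share V and J of the alpha chain but no beta V segment. The TRAV7-4 and TRAJ47 clone had 17 cells in NonTg parenchyma 2, with no base between V and J. The TRAV7D-4 and TRAJ17 clone had 11 cells in 5xFADTg parenchyma 2, again with TRBV1. Among these 7 clones, 5 used a TRBJ1 segment and 3 used TRBV1. Over all TRAV7 clonotypes TRBJ1 took a library mean of 38.8% and TRBV1 took 5.22%. The 7 clones were not tested against these shares, nor against large clones of other V segments.

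One large clone carried a second alpha chain. In the 24-cell TRAV7-5 clone, 16 cells also held a productive TRAV10 and TRAJ31 chain. A further 24 paired cells had the same beta chain with TRAV10 and TRAJ31 as the chain with most UMIs, and 11 of these held the TRAV7-5 chain as well. The beta chain occurred in 56 cells of the library, and counting by the alpha chain with most UMIs puts some of these cells under TRAV7 and others under TRAV10. These 11 cells supply 11 of the 52 second TRAV7 chains in the series. In the other 6 clones of 10 or more cells no cell had a second productive alpha chain.

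Of 111 clonotypes found in 2 libraries, 6 used TRAV7, which made up 11.1% of all clonotypes, with no test between these shares. All 6 joined meninges and parenchyma of the same genotype, 4 in NonTg and 2 in 5xFADTg mice. How the other shared clonotypes divided by tissue and genotype is not given here, so this is not shown to be particular to TRAV7. Besides the clone of 6 and 34 cells, these had 2 to 4 cells in all. The sources used here do not say whether tissue libraries share animals.

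Several alpha chains recurred with different beta chains. The rule took alpha CDR3 amino acid sequences found in 3 or more TRAV7 clonotypes, and 5 passed, 4 of them with 3 or more different beta chains. The same count for other V segments is not given here, so such recurrence is not shown to be particular to TRAV7. The most repeated pair is shown because almost all of each sequence is germline, with no base between V and J.
TRAV7D-2 with TRAJ9: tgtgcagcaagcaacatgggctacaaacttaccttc
TRAV7-4 with TRAJ9: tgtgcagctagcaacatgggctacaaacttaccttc
TRAV7 with TRAJ33: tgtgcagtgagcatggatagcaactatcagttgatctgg

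The TRAJ9 chains encode the same amino acids and formed 4 clonotypes of 6 cells with 4 TRBV segments in 3 parenchyma libraries. The TRAJ33 sequence was identical to the base in 4 clonotypes of 1 cell each, yet carried 4 different V labels, TRAV7-6, TRAV7N-6, TRAV7D-3 and TRAV7D-5, and 4 TRBV segments, in 5xFADTg parenchyma 1, NonTg parenchyma 2 and NonTg meninges. TRAJ33 is also the J segment of mucosal-associated invariant T cells, whose alpha chain uses TRAV1. The chains with TRAJ22 and TRAJ21 had 3 clonotypes and 3 beta chains each. The chain with TRAJ18 had only 2 beta chains, since 1 of its clones was found in both NonTg meninges and NonTg parenchyma 1 and so counted in each. Over all TRAV7 clonotypes the median was 2 bases between V and J, and 62 of 345 (18.0%) had none. TRAV7-4 had none in 21 of 76 (27.6%). Its germline end, at 17 bases, is the longest of the members, so more bases can be matched to V. The median matched to V was 12 bases for TRAV7-4 and 11 over all TRAV7 clonotypes. Whether this accounts for the higher share was not tested.

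TRAV7 alpha chains had the shorter mean CDR3 in every library. Mean CDR3 length was 13.4 ± 0.135 amino acids for TRAV7 and 13.7 ± 0.0799 for other clonotypes (SD, n = 6 libraries), lower in 6 of 6 libraries, with differences from -0.661 to -0.242 amino acids. The mean difference was -0.377 amino acids (two-sided exact sign-flip test, p = 0.03125, the smallest that 6 libraries allow), and did not pass adjustment over the 8 features compared (adjusted p = 0.25). It was -0.291 amino acids without iNKT-like receptors, which were defined by an alpha CDR3 of 15 amino acids and lay only among the other clonotypes. TRAV7-4 was the longest member, at 13.96 amino acids against 12.8 to 13.4 in the others. Its germline segment runs 17 bases from the cysteine codon that opens CDR3 to its end, against 13 in the others with clonotypes. The ends are tgtgcagctagtgagca for TRAV7-4 and tgtgcagtgagca for TRAV7-5. For the other features the exact sign-flip test gave adjusted p of 0.5 or more. TRBJ1 was used by 38.8 ± 4.56% of TRAV7 and 34.1 ± 2.38% of other clonotypes, and TRB CDR3 length averaged 14.03 amino acids in both. Clonotypes of 10 or more cells held 25.6 ± 22.2% of TRAV7 cells and 19.97 ± 13.99% of other cells (SD, n = 6 libraries). The difference of 5.64 points was 1.41 points without 5xFADTg parenchyma 2, where the shares were 54.3% of TRAV7 and 27.5% of other cells.

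TRAV7 used nearly the whole partner repertoire, with 42 of 43 TRAJ, 20 of 22 TRBV and 12 of 12 TRBJ segments. The 5 most used TRAJ segments took 26.1% of TRAV7 clonotypes, against 26.0% for the 5 most used in other clonotypes. The leading TRAJ partners were TRAJ22 with 23 clonotypes, TRAJ26 with 19, TRAJ31 with 17, TRAJ9 with 16 and TRAJ30 with 15. Members differed in them. TRAV7-4 supplied 9 and TRAV7-2 supplied 6 of the TRAJ26 clonotypes, and TRAV7-3 and TRAV7-6 none, while TRAV7-2 led for TRAJ9 with 9. The leading TRBV partners were TRBV12-2+TRBV13-2 and TRBV3 with 31 each, TRBV19 with 26, and TRBV5 and TRBV12-2 with 25 each. TRAV7-6 supplied 9 of the TRBV3 clonotypes, and TRAV7-2 and TRAV7-5 each supplied 9 of the TRBV12-2 clonotypes. These counts are a description with no test between members.

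In edgeR's quasi-likelihood test of TRAV7 against other clonotypes within libraries, 0 of 76 partner segments were called (0%). At an unadjusted p under 0.05 there were 3 (3.95%), and DESeq2 called 0. TRAJ7 had the smallest p. It occurred in 1 of 345 TRAV7 clonotypes (0.290%), in NonTg parenchyma 2, and in 64 of 2763 others (2.32%), a ratio of 0.125 with a counting interval of 0.00312 to 0.723 (edgeR adjusted p = 0.531). Without NonTg parenchyma 2, where the only TRAV7 clonotype with TRAJ7 lay, edgeR called TRAJ7 lower with an adjusted p of 0.0411, on a TRAV7 count of 0. TRAJ58 was seen in 0 TRAV7 clonotypes, which allows a share of up to 0.870% by the limit of 3 counts and 1.06% by the exact interval. It was seen in 26 others (0.941%), and the counting interval of the ratio ran from 0 to 1.22 (edgeR adjusted p = 0.821). TRAJ18 took 4.06% of TRAV7 and 6.95% of other clonotypes, a log2 difference of -0.79 (SE 0.43, edgeR adjusted p = 0.936). Its sign turned to 1.87 once 165 iNKT-like clonotypes, which use TRAV11 with TRAJ18 and none of which used TRAV7, were left out. Among partners with a higher share in TRAV7 the smallest p belonged to TRAJ17, with 3.77% of TRAV7 and 1.63% of other clonotypes, TRAJ9, with 4.64 and 2.39%, and TRBV5, with 7.25 and 4.99%. Their log2 differences, TRAV7 minus other, were 1.19 (SE 0.55), 0.92 (SE 0.48) and 0.55 (SE 0.38), with edgeR adjusted p of 0.821, 0.936 and 0.936. By list, the log2 difference was positive for 14 of 21 segments from TRAJ30 to TRAJ2 (median 0.16), 12 of 22 from TRAJ61 to TRAJ31 (0.063), 10 of 21 TRBV segments (-0.061), 4 of 6 TRBJ1 (0.13) and 3 of 6 TRBJ2 (-0.015), with none called. The median over all 76 partners was 0.085 and turned to -0.23 with TMM factors.

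The choice of TRAJ differed among TRAV7 segments by copy. TRAV7-6, the segment nearest the TRAJ array, joined a TRAJ61 to TRAJ31 segment, the part of the array on the V side, in 26 of 27 clonotypes (96.3%, 95% interval 81.0 to 99.9%). TRAV7N-6 did so in 10 of 29 (34.5%, 17.9 to 54.3%). The median TRAJ was TRAJ47 for TRAV7-6 and TRAJ22 for TRAV7N-6. TRAV7-5 used this part in 35 of 56 clonotypes (62.5%) and TRAV7D-5 in 7 of 21 (33.3%). TRAV7-4 used it in 22 of 50 (44.0%), TRAV7D-4 in 4 of 17 (23.5%) and TRAV7N-4 in 1 of 9. TRAV7-3 went the other way, with 13 of 31 (41.9%) against 10 of 17 (58.8%) for TRAV7D-3. TRAV7D-2 used it in 25 of 74 (33.8%), and TRAV7-1, which has no letter but lies farthest upstream, in 4 of 14.

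**Figure D4:**
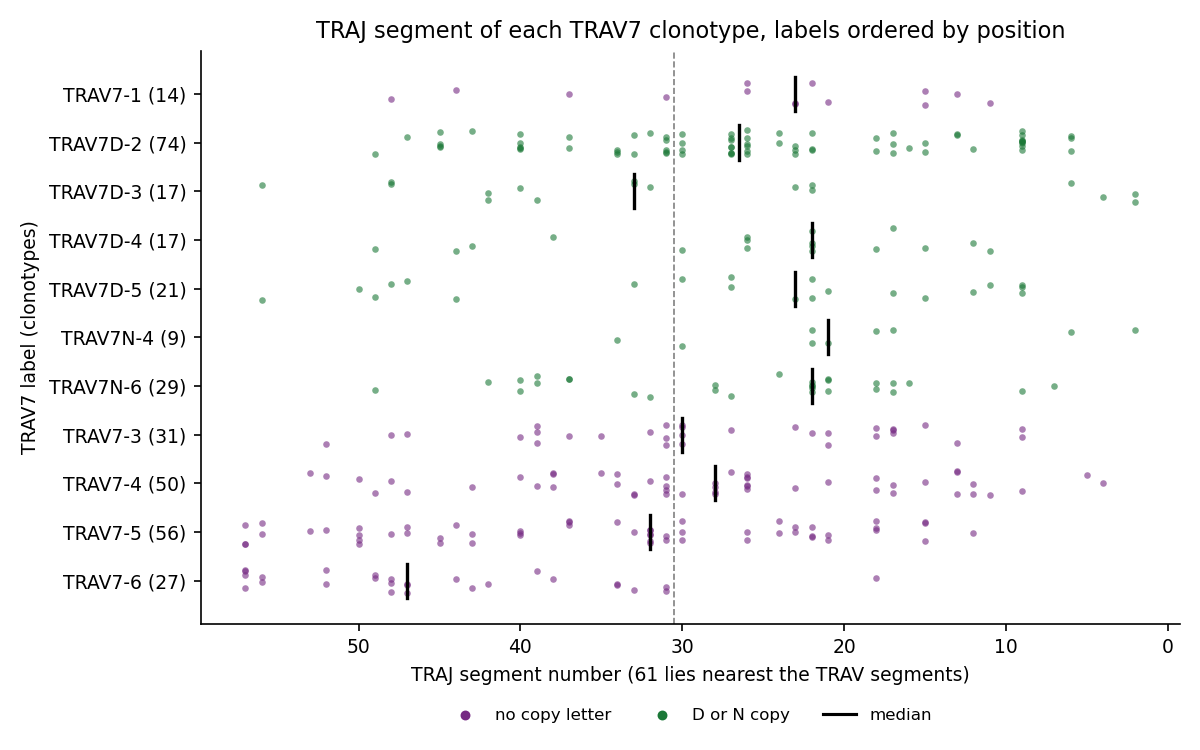
TRAJ segment number (x axis, 61 nearest the V segments) of each TRAV7 clonotype (points, spread vertically for view) by V label (y axis, most distant from TRAJ at the top, clonotypes in parentheses). TRAV7-6 clonotypes lie left of the dashed line between TRAJ31 and TRAJ30 except 1, and TRAV7N-6 clonotypes lie on both sides.

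Within libraries, clonotypes without a copy letter used TRAJ61 to TRAJ31 more than D and N copies in 6 of 6. The shares without a letter and with one were 50% (20 of 40) and 27.8% in 5xFADTg parenchyma 1, 44.7 and 38.6% in 5xFADTg parenchyma 2, and 61.9 and 32.0% in NonTg parenchyma 1. They were 59.1 and 40% (8 of 20) in NonTg parenchyma 2, 81.2 and 25.0% in 5xFADTg meninges, and 63.6 and 40.9% in NonTg meninges. The means were 60.1 ± 12.7% over 178 clonotypes without a letter and 34.1 ± 6.77% over 167 D and N copies (SD, n = 6 libraries), a difference of 26.0 ± 16.7 points (two-sided exact sign-flip test, p = 0.03125, the smallest possible). TRAV7D-2, whose letter is the least certain, made up 74 of the 167 copies (44.3%), and the difference was 25.9 points without it. It was 18.6 points without TRAV7-6, 29.2 without TRAV7-1 and 44.9 for TRAV7-5 and TRAV7-6 alone, whose copies differ most in sequence. With 5 libraries the test cannot go below 0.0625, and the difference ran from 19.998 points, without 5xFADTg meninges, to 30.04 points, without 5xFADTg parenchyma 2.

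**Figure D5:**
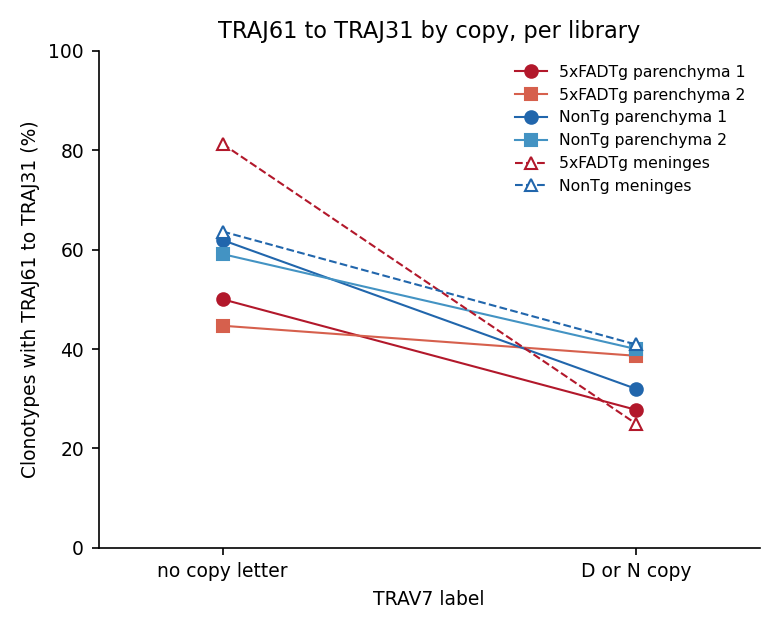
Share of TRAV7 clonotypes with a TRAJ61 to TRAJ31 segment (y axis, %) for labels without a copy letter and for D or N copies (x axis), 1 line per library. All 6 lines fall, with 44.7 to 81.2% without a letter and 25.0 to 40.9% in copies.

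This difference was not particular to TRAV7. In 10 of the 11 other TRAV families with at least 20 clonotypes of each kind the share was also higher without a letter. Nearness to TRAJ61 was also set against the share with TRAJ61 to TRAJ31. Over the 11 TRAV7 labels, each of at least 5 clonotypes, Pearson's r was 0.589 and Spearman's rho 0.627. Over 66 labels of other families, each of at least 10 clonotypes and with TRAV11 of the iNKT-like receptors among them, r was 0.623 and rho 0.606. These are descriptions across segments that share libraries. As a family TRAV7 used this part in 46.7 ± 4.86% of clonotypes and other V segments in 46.5 ± 3.52% (SD, n = 6 libraries), with its members on both sides of this level. The near equality held only with iNKT-like receptors, which use TRAJ18, among the other clonotypes. Without them the difference, TRAV7 minus other, was -2.93 points (exact sign-flip test, adjusted p = 0.625).

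Across the 6 libraries, the families of at least 60 clonotypes whose share of clonotypes was most like that of TRAV7 were TRAV5 (Pearson's r = 0.778), TRAV10 (0.534) and TRAV6 (0.425). These values are a description over 6 libraries, in each of which the shares of all families sum to the whole.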

How the data were processed

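Per the labels' protocols, a Chromium v2 immune profiling kit was used for the receptor libraries, and Cell Ranger 6.0 with the mouse build mm10 is named in the submitters' processing notes. The deposited files list contigs with raw counts of reads and UMIs, without normalization, per the file headers. Another 6 samples, of gene expression, were not used here.

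The quasi-likelihood test of edgeR 4.0.16 (R 4.3.3, limma 3.58.1) was run on clonotypes per segment, taking a library's clonotypes as its size and keeping segments with 10 or more, with D and N copies collapsed and Benjamini-Hochberg adjustment over all segments. The fits, except the interaction fit, were tested on simulated data with large changes in segments of many clonotypes. This does not show whether smaller changes, or changes in rare segments, would be called. DESeq2 1.42.0 was an alternative. Single values were compared with two-sided exact permutation or sign-flip tests over libraries, where a two-sided permutation p is the doubled smaller tail. Cells with 2 or more TRB, which can be doublets, were left out of clonotypes, and no other doublet filter was run. Receptor chains were amplified by PCR, so intervals (95%, Clopper-Pearson) and the limit of 3 counts beside a count of 0 cover counting error only. Germline sequences and positions came from GENCODE M21 transcripts. Other steps ran in Python 3.11.15 (scipy 1.17.1, numpy 2.4.6, pandas 2.3.3, with figures from matplotlib 3.10.9).

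Members, lists and tests were chosen with earlier results of these data known. Named are all 6 members, the 5 TRAJ and 5 TRBV with most TRAV7 clonotypes, the 3 partners with the smallest p in each direction, the largest and shared clones, and recurrent alpha chains. Alternatives were TMM factors, DESeq2, no count filter, at least 2 UMIs per chain, cells or all productive chains in place of clonotypes, amino acid clonotypes, copies kept apart, no iNKT-like receptors, expansion from 3 cells, a replicate block and each library left out. The interaction fit, the merged TRBV label, cells without large clones and the subsets of the copy comparison were added after the data were seen.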

Additional observations from a re-analysis of the deposited data

Results flagged for a closer look

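The meninges minus parenchyma change of the TRAV7 share of clonotypes ran in opposite directions in 5xFADTg and NonTg mice for the family and for 3 members, in each genotype against both of its parenchyma libraries. For the family it was -0.54 points in 5xFADTg and 1.33 points in NonTg mice, a difference of -1.88 points. TRAV7-2 had -0.68 points in 5xFADTg and 1.91 points in NonTg mice (difference -2.59 points), and TRAV7-3 had -0.32 points in 5xFADTg and 0.70 points in NonTg mice (difference -1.02 points). TRAV7-6 went the other way, with 0.57 points in 5xFADTg and -1.19 points in NonTg mice (difference 1.76 points). Each rests on 1 meninges library per genotype. The share of all 125 segments that ran in opposite directions in this way is not given here. The pattern is therefore not shown to be particular to TRAV7. In an edgeR fit of the genotype by tissue interaction, added after the data were seen, the log2 values were -1.38 (SE 0.66) for TRAV7-2, -1.02 (SE 0.81) for TRAV7-3 and 1.46 (SE 0.88) for TRAV7-6, each with an adjusted p of 0.986. That fit called 0 of 125 segments, with 3 at an unadjusted p under 0.05 and none of them a TRAV7 member. For the family share the difference itself was not tested.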

How the results depend on the processing

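TRAV7-1 had 1 to 4 clonotypes per library and gave no genotype value with a parenchyma library left out. No TRAV7 member was called in any alternative of the genotype, tissue or expansion comparison. The difference between copies kept its direction under every alternative and ran from 19.998 to 30.04 points with single libraries left out, where p cannot go below 0.0625. For 5xFADTg against NonTg with the replicate number as block, 0 segments were called and the family difference stayed at 1.38 points (exact sign-flip p = 0.5). Deviations of same-numbered libraries correlated at 0.0888. This single value cannot show whether the numbers pair the libraries, and the main fit did not treat them as pairs.

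Directions turned as follows, and the cause was not tested. Counting cells gave log2 values of -1.05 for TRAV7-4 and 1.19 for TRAV7-6 between genotypes and -0.993 points for the family between tissues. All productive chains gave -0.056 for TRAV7-5 (genotype) and -0.051 for TRAV7-3 (tissue). TMM factors and DESeq2 moved the median log2 value of all segments from -0.064 to -0.40 and -0.33 for expansion, and from 0.085 to -0.23 and -0.29 for partners. With them expansion values were -0.24 and -0.18 for TRAV7-4 and -0.22 and -0.35 for TRAV7-6, and partner values were -0.13 and -0.16 for TRAJ22, -0.11 and -0.19 for TRAJ30, -0.26 and -0.32 for TRAJ31, -0.16 and -0.19 for TRBV19 and -0.14 and -0.15 for TRBV3. Expansion from 3 cells gave -1.81 for TRAV7-6. At least 2 UMIs per chain gave -0.067 for TRAV7-6 in expansion, -0.00587 points for the family between tissues, -0.401 points for the TRAJ61 to TRAJ31 share, -0.0165 amino acids for TRB CDR3 length and -0.333 for median TRA UMIs. Without iNKT-like receptors TRAJ18 was 1.87, TRAJ31 -0.041, the TRAJ61 to TRAJ31 share -2.93 points and cells with 2 TRA -0.124 points.

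With single libraries left out, values ran from -0.17 to 0.97 for TRAV7-4 and -0.040 to 0.20 for TRAV7-5 (genotype). For tissue they ran from -0.11 to 1.10 for TRAV7-1, -0.44 to 0.94 for TRAV7-2, -0.28 to 0.73 for TRAV7-3, -0.29 to 0.11 for TRAV7-4, -1.04 to 0.42 for TRAV7-6 and -0.1196 to 0.642 points for the family. For expansion they ran from -1.16 to 0.039 for TRAV7-3, -0.22 to 0.38 for TRAV7-4 and -0.88 to 0.38 for TRAV7-6. Partner values ran from -0.066 to 0.38 for TRAJ22, -0.31 to 0.42 for TRAJ30, -0.34 to 0.16 for TRAJ31 and -0.021 to 0.29 for TRBV19, with 0 to 1 segments called. Against other clonotypes they ran from -1.16 to 2.14 points for TRAJ61 to TRAJ31, -0.0411 to 0.0658 amino acids for TRB length, -1.75 to 1.45 points for 2 TRA and -2.6 to 4.7 for median TRA UMIs.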
